A study of Mus musculus with 16 samples.

Results

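Acod1, Nos2, Gch1, Ass1, Asl, Slc7a2 and Arg2 encode enzymes and a transporter of itaconate, nitric oxide and arginine metabolism. They were followed in the mouse macrophage-like cell line RAW264.7, exposed to the bacterial cell wall component lipopolysaccharide (LPS). The genes were chosen by name, as rows of the count table whose gene symbol equals 1 of these 7. The table of 13832 genes held 6 of them, and Slc7a2 was not analysed here. Acod1, Gch1 and Asl passed the filter on low counts (at least 10 counts in at least 4 of 8 libraries of each material), as 9529 genes did; Nos2, Ass1 and Arg2 did not.

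Cytoplasmic input RNA and ribosome footprints were sequenced from untreated cells (0 min) and from cells given 100 ng/ml LPS for 15, 30, 45, 60, 75 or 90 min or for 16 h. Footprints are the stretches of mRNA that ribosomes shield from RNase I, and both materials of a time point came from 1 lysate, per the labels' protocols. This gave 16 libraries in 16 groups of 1 library, with no replicate and no untreated culture after 0 min, so LPS cannot be told apart from handling or time in culture. The labels do not say whether time points came from separate cultures, so p-values of a change measure only the scatter of these libraries about a time curve.

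Acod1 (aconitate decarboxylase, also called Irg1) makes itaconate from cis-aconitate, an intermediate of the citrate cycle, in activated macrophages. Nos2, the inducible nitric oxide synthase, turns arginine into nitric oxide and citrulline and needs the cofactor tetrahydrobiopterin, whose synthesis starts with Gch1. Ass1 and Asl rebuild arginine from citrulline, Slc7a2 carries arginine into the cell, and Arg2, the mitochondrial arginase, splits arginine into ornithine and urea.

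Promoter sequence in RefSeq's table for build GRCm38.p6 was matched for Acod1, Gch1 and Ass1. Those of Acod1 and Gch1 are shown because both genes rose within 90 min, by very different amounts. The 250 bases before each RefSeq start were searched on both strands for 9 motifs. They were the TATA box (TATAAA), the CCAAT box of that name, the cAMP response half-site (TGACG), AP-1 (TGANTCA), gamma-activated site (TTCNNNGAA), C/EBP (TTNNGNAA), ETS/PU.1 core (GGAAGT), and the kappaB motif and interferon-stimulated response element, given by name only. Capitals mark the letters of a match on either strand. For Acod1, chr14:103046762-103046991 on the plus strand is printed, 230 bases that end 21 bases before the RefSeq start. For Gch1, chr14:47189414-47189663 on the minus strand is printed.
Acod1: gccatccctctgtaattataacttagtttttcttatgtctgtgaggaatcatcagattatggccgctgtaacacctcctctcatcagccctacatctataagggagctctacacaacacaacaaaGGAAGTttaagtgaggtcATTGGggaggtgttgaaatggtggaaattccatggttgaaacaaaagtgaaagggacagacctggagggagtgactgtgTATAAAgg
Gch1: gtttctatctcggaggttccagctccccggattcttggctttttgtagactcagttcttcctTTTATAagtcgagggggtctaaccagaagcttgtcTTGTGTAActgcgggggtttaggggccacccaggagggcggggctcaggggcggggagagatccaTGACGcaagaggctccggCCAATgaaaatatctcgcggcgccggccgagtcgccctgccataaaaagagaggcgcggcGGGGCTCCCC

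The Acod1 window held 3 of the 9 motifs. TATAAA lay 28 to 23 bases before the start and occurs in 12.4% of all 32851 windows of this length. The GENCODE model of the gene starts upstream of the RefSeq start, so the last 15 printed bases, with this match, lie inside that model. CCAAT lay 107 to 103 bases before it on the minus strand (33.8% of windows) and GGAAGT 125 to 120 bases before it (19.7%). The Gch1 window held 5 motifs. The kappaB motif lay 10 to 1 bases before the start (9.55% of windows), CCAAT at 70 to 66, TGACG at 88 to 84 (17.8%), the C/EBP motif at 153 to 146 (36.8%) and TATAAA at 188 to 183 on the minus strand. The AP-1, interferon-stimulated and gamma-activated motifs (6.75%, 2.98% and 7.02% of windows) had no match in either window, and the Ass1 window, with 75.6% G and C, matched none of the 9. These matches are descriptions of letters, and no match says only that the letters are not in this window.

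Each library held 6702930 to 6702932 counts, an equal number that says nothing of the original sequencing depth. All 12 macrophage markers were in the table, with Lyz2 at 4789 to 15875 counts, Csf1r at 1637 to 4793 and Cd68 at 1429 to 3812; Lyz1 stood at 0 to 9 and Itgam at 17 to 96. Their summed counts were 24468 to 36274 in input and 32632 to 49288 in footprints. Of 20 markers of other cells, 8 were in the table. The epithelial genes Krt8 and Cdh1 and the liver gene Apoa1 never exceeded 1 count. The summed counts of those 8 were 13 to 91 in input and 19 to 152 in footprints, with S100a8 at up to 111, and their part in the results was not tested. In bulk libraries such as these, fewer cells with a transcript and less of it per cell cannot be told apart.

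Acod1 (chr14:103046977-103056573, plus strand, 5 exons and 1464 coding bases in GENCODE M21 on GRCm38) rose early and by a large factor. Its mRNA reached 162 times the untreated level at 90 min (95% counting interval 113 to 240) and 758 times at 16 h (531 to 1124). Its footprints reached 371 times (221 to 679) and 1946 times (1159 to 3559). Input counts were 30 untreated, 18 at 15 min, 90 at 30 min, 326 at 45 min, 1184 at 60 min, 2429 at 75 min, 4423 at 90 min and 21623 at 16 h. Footprint counts in the same order were 14, 17, 17, 160, 1108, 2491, 4276 and 25441. The untreated and 15 min libraries were low in both materials, every library from 45 min on lay above them, and at 30 min the materials parted. Input was then at 2.99 times untreated (1.96 to 4.68) and footprints at 1.33 times (0.615 to 2.91), an interval that includes no change.

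By 45 min the materials stood at 11.2 (7.67 to 16.8) and 12.6 times untreated (7.30 to 23.6). Between 90 min and 16 h input rose by a further 4.68 times (4.53 to 4.83) and footprints by 5.24 times (5.08 to 5.42). Ranked by counts, Acod1 moved from place 9074 in the untreated input library to place 209 at 90 min and place 17 at 16 h. In footprints it moved from place 9327 to 263 and 13. At 16 h it held 0.323% of input counts and 0.380% of footprint counts.

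The changes were tested across all 9529 genes with edgeR's quasi-likelihood test. A quadratic curve in minutes described 0 to 90 min, 16 h had its own term, and Benjamini-Hochberg adjusted p-values under 0.05 were called. Acod1 was called higher within 90 min in input (adjusted p = 5.3e-07) and footprints (4.1e-06), and at 16 h (1.2e-08 and 1.8e-07). The fitted curve overshot the observed ratios, at 9.04 ± 0.45 (SE) on the log2 scale for input and 11.16 ± 0.78 for footprints at 90 min, so the observed ratios are the sizes to read. The fitted changes at 16 h, 11.22 ± 0.48 and 13.26 ± 0.84, also lay above the observed ratios. For the changes within 90 min, a robust estimate of the spread, tried after the data were seen, gave SEs of 0.71 and 1.26 and adjusted p-values of 0.0028 and 0.011.

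**Figure D1:**
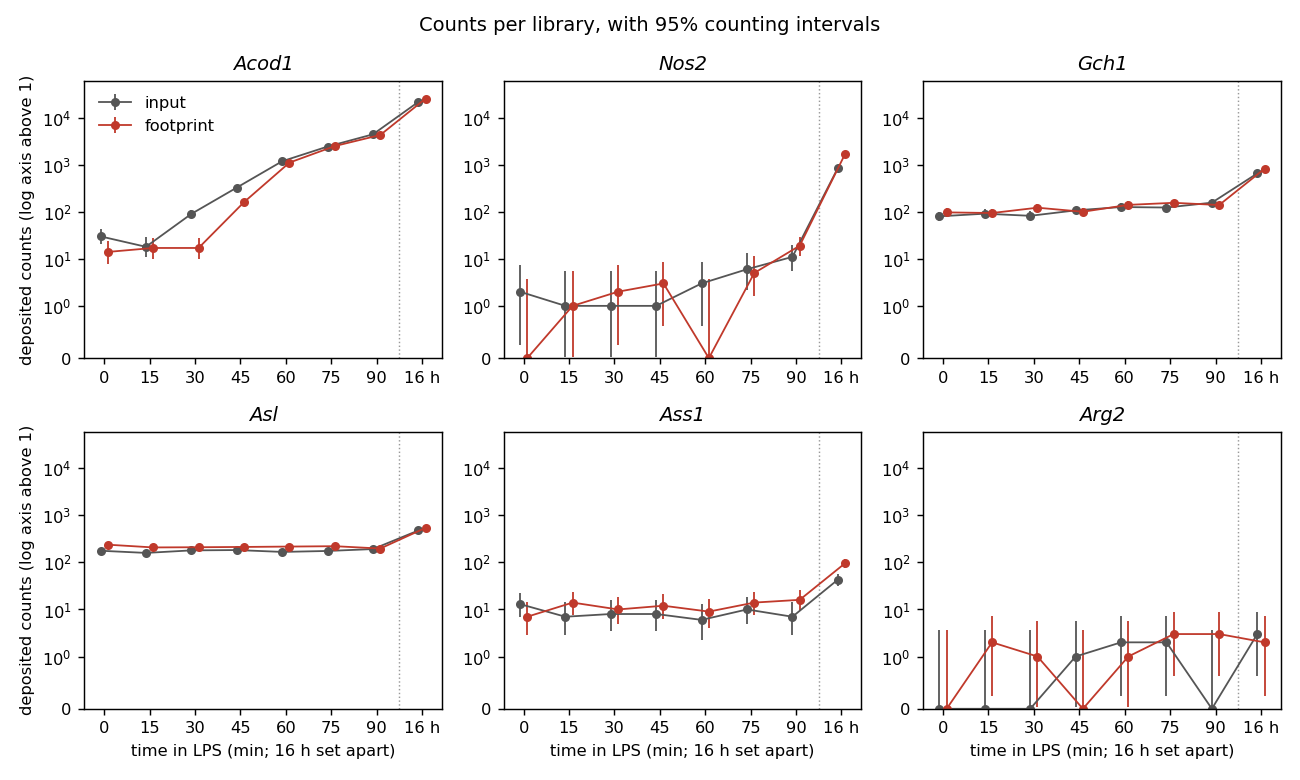
Deposited counts of 6 genes in each library (vertical axis, logarithmic above 1 count and linear below) against time in LPS (minutes, with 16 h set apart by a dotted line), input in grey and footprints in red, with bars for 95% counting intervals. Acod1 climbed from 14 to 30 counts untreated to 21623 and 25441 at 16 h, Nos2 stood at up to 19 counts through 90 min and at 849 and 1695 at 16 h, and Arg2 never exceeded 3.

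Nos2 (chr11:78920787-78960254, plus strand, 27 exons, 3432 coding bases) was close to undetected until 75 min and abundant at 16 h. Input counts were 2 untreated, then 1, 1, 1, 3, 6 and 11 from 15 to 90 min, and 849 at 16 h. Footprint counts were 0 untreated, then 1, 2, 3, 0, 5 and 19, and 1695 at 16 h. The 16 h library stood far above all others in both materials, and the libraries up to 60 min, at 0 to 3 counts, were at or under the floor of 3 counts.

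From 90 min to 16 h Nos2 rose 73.9 times in input (41.1 to 149) and 78.6 times in footprints (50.2 to 131). Against untreated cells the input ratio at 16 h was 446 (123 to 3692), with only 2 counts in the untreated library. Footprints were at least 605-fold higher, taking 3 counts as the untreated floor. Nos2 failed the count filter, and its fits come from all genes with a count (13477 in input, 12577 in footprints). There the 16 h change was called in both materials (edgeR adjusted p = 2.4e-11 and 3.3e-10). The change within 90 min was also called (edgeR adjusted p = 0.0047 and 0.0038), but it rested on the 90 min library: without it the adjusted p-values were 0.14 and 0.45. In those unfiltered fits 10.4% of genes were called higher within 90 min in input and 9.22% in footprints, and 22.3% and 21.8% at 16 h. Of the other nitric oxide synthases, Nos1 stood at 0 to 3 counts in every library and Nos3 at 0 to 5, apart from 16 footprint counts for Nos3 at 16 h.

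Gch1 (chr14:47153895-47189413, minus strand, 6 exons, 723 coding bases) rose modestly within 90 min and further by 16 h. Input counts were 80 untreated, then 91, 82, 107, 126, 123 and 156 from 15 to 90 min, and 653 at 16 h. Footprint counts were 97 untreated, then 94, 122, 100, 140, 155 and 139, and 820 at 16 h. The libraries from 60 min on lay above all earlier ones in both materials, and the 16 h libraries stood apart.

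At 90 min Gch1 was at 2.14 times untreated in input (1.63 to 2.84) and 1.74 times in footprints (1.33 to 2.28). At 16 h it was at 8.58 times (6.80 to 10.97) and 9.05 times (7.33 to 11.3). In the edgeR fit the early input change was 1.07 ± 0.16 on the log2 scale (adjusted p = 0.0018) and that of footprints 0.94 ± 0.19 (adjusted p = 0.011). The footprint call was lost without the untreated library (adjusted p = 0.052), where the value at 0 min is extrapolated from the later times. The 16 h changes were 3.19 ± 0.16 and 3.25 ± 0.18 (adjusted p = 3.1e-08 and 7.4e-08).

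The arginine-rebuilding pair was called at 16 h and not within 90 min. Asl (chr5:130011258-130029247, minus strand, 16 exons, 1392 coding bases), argininosuccinate lyase, had input counts of 177 untreated, then 159, 180, 183, 167, 175 and 192, and 477 at 16 h. Its footprint counts were 238 untreated, then 208, 210, 213, 217, 221 and 197, and 543 at 16 h. The 7 libraries up to 90 min lay within a narrow band in each material, and 16 h lay above it, at 2.83 times untreated in input (2.38 to 3.39) and 2.44 times in footprints (2.09 to 2.86). The 16 h change was called in both (edgeR, 1.63 ± 0.13 and 1.37 ± 0.13 on the log2 scale, adjusted p = 1.6e-06 and 4.8e-06). The early change was not (0.24 ± 0.13 and 0.13 ± 0.12, adjusted p = 0.32 and 0.72).

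Ass1 (chr2:31470207-31520672, plus strand, 16 exons, 1236 coding bases), argininosuccinate synthase, had few counts. Input held 13 untreated, then 7, 8, 8, 6, 10 and 7, and 43 at 16 h. Footprints held 7 untreated, then 14, 10, 12, 9, 14 and 16, and 96 at 16 h. Only the 16 h libraries stood apart, at 3.48 times untreated (1.84 to 7.05) and 14.7 times (6.86 to 37.5). In fits with no count filter the 16 h change was called in footprints (edgeR, 3.42 ± 0.39 on the log2 scale, adjusted p = 1.0e-05) and in input (2.04 ± 0.43, adjusted p = 0.0015), where DESeq2 gave an adjusted p of 0.052. The early changes were not called (adjusted p = 0.69 in input and 0.42 in footprints). Of the 12 ratios to untreated up to 90 min, only that of footprints at 90 min, 2.78 (1.08 to 7.98), had a counting interval that left out no change. Of the 1208 stretches of 29 bases in the Ass1 coding sequence, 1034 also occur in Gm5424, which has no row of its own here, so these counts are uncertain.

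Arg2 (chr12:79130777-79156301, plus strand, 8 exons, 1062 coding bases) was at or under 3 counts in all 16 libraries. Input counts were 0, 0, 0, 1, 2, 2, 0 and 3 and footprint counts 0, 2, 1, 0, 1, 3, 3 and 2, from untreated to 16 h. No fold can be given, and a count of 0 allows up to 3 counts per library. Exons of Arg2 overlap those of Vti1b on the other strand over 285 bases, and whether strand was used in counting is unknown (not given in the sources used here).

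Of Acod1, Gch1 and Asl, edgeR called 2 of 3 higher within 90 min in input, where 14.9% of the 9529 genes tested were called higher and 11.3% lower. In footprints it also called 2 of 3 higher, against 12.2% higher and 8.3% lower among all genes. At 16 h all 3 were called higher in input (28.6% of all genes higher, 27% lower) and in footprints (25.9% higher, 24.2% lower). Their median fitted changes were 1.07 and 0.94 (log2) within 90 min and 3.19 and 3.25 at 16 h, beside medians over all genes of -0.04, -0.07, 0.007 and 0.004. Scaling by total counts moved those all-gene medians to -0.17, -0.32, -0.16 and -0.10 and turned the balance of calls to 988 higher and 1866 lower in input within 90 min, 738 and 2610 in footprints, and 2129 and 3362 and 2099 and 2764 at 16 h. Every call for these 3 genes in these 4 comparisons was also made with that scaling.

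Levels were compared between genes as TMM-scaled CPM (counts scaled to a common library size) per 1000 coding bases. In untreated input the order was Asl (17.0, counting interval 14.6 to 19.6), Gch1 (14.8, 11.7 to 18.4), Acod1 (2.73, 1.84 to 3.90), Ass1 (1.40, 0.747 to 2.40) and Nos2 (0.0777, 0.00941 to 0.281). The counting intervals of Asl and Gch1 overlapped, as did those of Acod1 and Ass1, and whether these pairs differed was not tested. All these levels rest on coding length, and levels per transcript length were not compared. After 16 h the order in input was Acod1 (2070), Gch1 (127), Asl (48.0, 43.8 to 52.5), Nos2 (34.7, 32.4 to 37.1), Ass1 (4.88) and Arg2 (0.396). No neighbouring pair of that order had overlapping counting intervals.

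In footprints at 16 h Nos2 (77.2, 73.6 to 81.0) stood above Asl (61.0, 55.9 to 66.3), behind Acod1 (2716) and Gch1 (177) and ahead of Ass1 (12.1). Per coding length, the order of Nos2 and Asl thus differed between input and footprints at 16 h, in single libraries with no replicate check. As TMM-scaled CPM with no division by length, Nos2 stood above Asl in input (119.0 against 66.9) and in footprints (264.9 against 84.9). The Nos2 transcript has 4192 bases, 3432 of them coding, and that of Asl has 2413, of which 1392 are coding. The input order of this pair thus rests on the use of coding length, and their order per transcript length was not tested. In untreated footprints Asl (25.0) and Gch1 (19.6) led, and Nos2 had 0 counts.

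**Figure D2:**
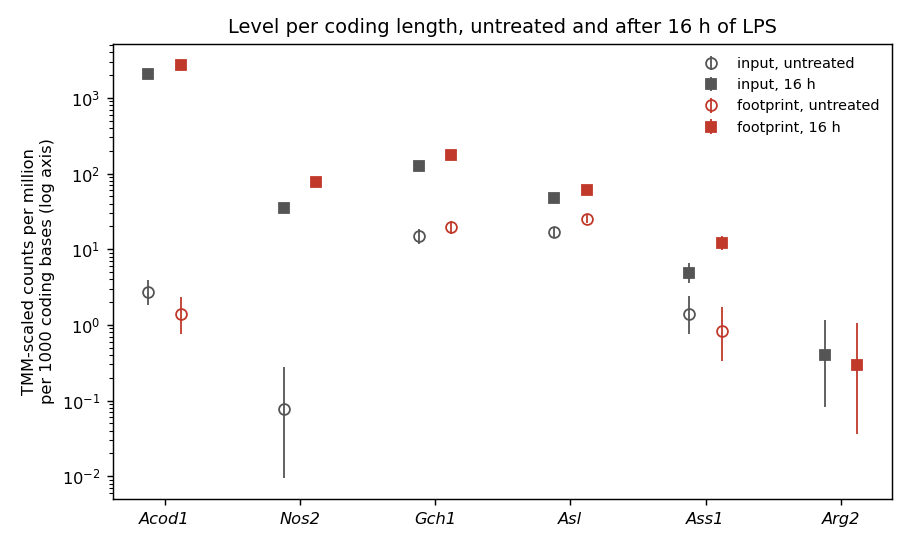
Level of each gene as TMM-scaled CPM per 1000 coding bases (logarithmic vertical axis) in untreated cells (open circles) and after 16 h of LPS (filled squares), input in grey and footprints in red, with bars for 95% counting intervals. Acod1 lay below Asl and Gch1 in untreated input (2.73 against 17.0 and 14.8) and above both at 16 h (2070 against 48.0 and 127); points at 0 counts are not drawn.

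Ribosome density is the ratio of TMM-scaled footprints to input at a time point, not per length and relative to the typical gene. For Acod1 it was 0.511 untreated (0.250 to 0.994), 1.08 at 15 min (0.522 to 2.22), 0.227 at 30 min (0.127 to 0.384) and 0.577 at 45 min (0.475 to 0.700). It was 1.12 at 60 min (1.03 to 1.21), 1.22 at 75 min (1.15 to 1.29), 1.17 at 90 min (1.12 to 1.22) and 1.31 at 16 h (1.29 to 1.34). The 30 and 45 min values lay below all later ones with no overlap of intervals, and the 30 min interval overlapped that of untreated cells. The span was 2.53 on the log2 scale, against a median span of 0.559 over the 9511 genes with counts in all 16 libraries, of which 62 spanned more. The Acod1 span rested on 14 to 17 footprint counts in each of the first 3 libraries, and the sparse Ass1 spanned 2.23.

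The test of a smooth density change did not call Acod1 (edgeR, 1.92 ± 0.59 on the log2 scale within 90 min, adjusted p = 0.18; 1.95 ± 0.62 at 16 h, adjusted p = 0.26). With a cubic curve in minutes it was called within 90 min (1.06 ± 0.50 at its largest excursion, adjusted p = 0.0043). With the quadratic curve no density change of Acod1, Gch1 or Asl was called by edgeR or by DESeq2 in either window. At an unadjusted p under 0.05 edgeR had 1 of 3 higher, Acod1, in each window, where 4.45% of all genes were higher within 90 min and 7.5% at 16 h. At the adjusted threshold 1.11% of all genes were called higher and 0.136% lower within 90 min, and 0.304% and 0.0944% at 16 h. Gch1 density ranged from 1.08 to 1.79 and Asl density from 1.24 to 1.55 over the 8 time points. The counting interval of Gch1 included 1 in untreated cells and at 15, 45 and 90 min, and no Asl interval did. Nos2 density could be given at 75 min (0.988, 0.239 to 3.89), 90 min (2.09, 0.946 to 4.86) and 16 h (2.23, 2.05 to 2.42).

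The mean density level over the 8 time points was above the typical gene for Asl (edgeR, 0.48 ± 0.06 on the log2 scale, adjusted p = 2.8e-07) and Gch1 (0.41 ± 0.08, adjusted p = 8.6e-05) and was -0.01 ± 0.15 for Acod1 (adjusted p = 0.95). That is 2 of 3 higher, where 43.7% of all genes were called higher and 41.5% lower. The p-values of this level measure only the scatter of the 8 time points, each without a replicate, about a common ratio of footprints to input. The time-point block, which pairs input with footprints and takes up change over time, mattered here. Without it the model held no term for time, and the edgeR adjusted p-values were 0.13 for Asl and 0.51 for Gch1. In unfiltered fits Ass1 (0.93 ± 0.22, adjusted p = 0.00044) and Nos2 (1.07 ± 0.15, adjusted p = 3.6e-07) were called higher too, where 31.2% of the 13832 genes were called higher and 33.5% lower. The Nos2 call was lost without the 16 h libraries (adjusted p = 0.42) and with DESeq2 (0.48), and both calls were lost without the block (0.17 for Ass1 and 0.57 for Nos2).

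**Figure D3:**
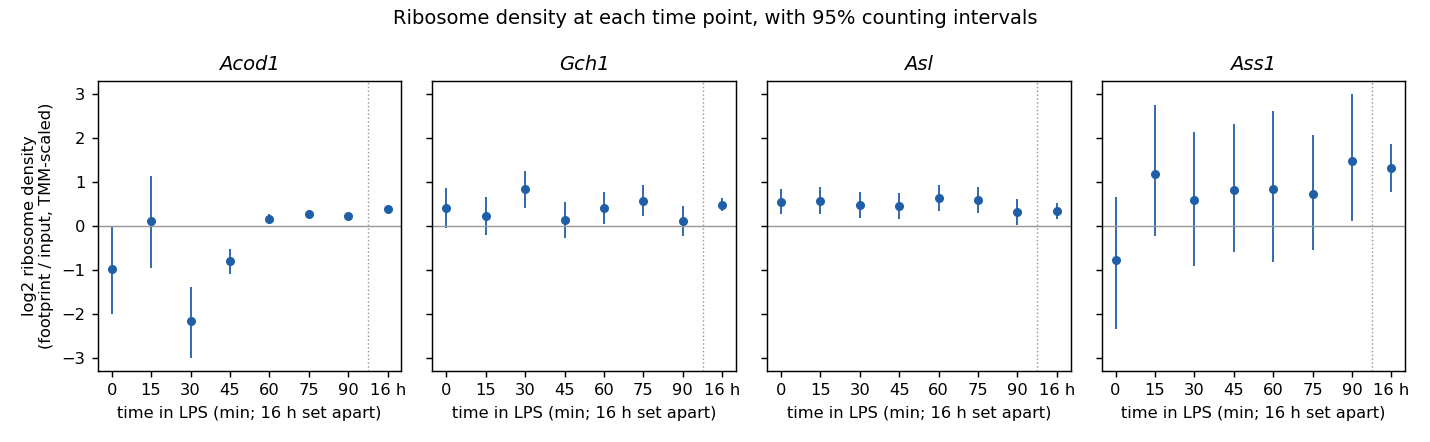
Ribosome density on the log2 scale (footprints over input, TMM-scaled; vertical axis) at each time in LPS (minutes, 16 h set apart by a dotted line), with bars for 95% counting intervals. Acod1 fell to its lowest point, -2.14, at 30 min and stood between 0.16 and 0.39 from 60 min on, while Gch1 and Asl stood above 0 at all 8 time points (0.11 to 0.84 and 0.31 to 0.63) and Ass1 had wide intervals. The Gch1 interval included 0 in untreated cells and at 15, 45 and 90 min.

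Around these genes, 5 lists were described by their counts and medians. Changes given with an SE for list genes are fitted sizes, which can differ from the observed ratios, as they did for Acod1. Among all genes, 14.9% were called higher and 11.3% lower in input within 90 min, and 12.2% and 8.3% in footprints. At 16 h these shares were 28.6% and 27% in input and 25.9% and 24.2% in footprints, and all 4 medians over all genes lay between -0.07 and 0.007 (log2). The list named inducers held 22 tested LPS receptor, adaptor, interferon and transcription factor genes. The name is only a label, and their effect on Acod1 and Nos2, in either direction, was not tested. Its input calls within 90 min were 9 higher and 6 lower, and its footprint calls 9 and 3, with medians of 0.28 and 0.32. Scaling by total counts gave 7 and 5 calls in footprints and turned that median to -0.20. Ticam1, the adaptor of the interferon arm of LPS signalling, had fitted changes of 3.34 ± 0.27 in input and 3.18 ± 0.36 in footprints (log2). Its input counts went from 55 untreated to 354 at 90 min, and its footprint counts from 44 to 208. The NF-kB subunit gene Rel had fitted changes of 3.12 ± 0.14 and 3.21 ± 0.19. Rel counts went from 190 to 1280 in input and from 231 to 1544 in footprints at 90 min. The stress factor gene Atf3 had fitted changes of 4.82 ± 0.60 and 5.07 ± 0.58, calls that a robust spread did not make (adjusted p = 0.052 and 0.051). At 75 min, where these fitted changes were largest, Atf3 counts had gone from 90 to 1486 in input and from 118 to 1985 in footprints. At 16 h there were 16 higher and 2 lower input calls and 16 and 1 footprint calls, with medians of 0.91 and 1.06.

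Stat2, a subunit of the interferon response factor ISGF3, fell within 90 min by 1.19 ± 0.19 in input and rose at 16 h by 3.35 ± 0.15. Its input counts were 112 untreated, 51 and 55 at 75 and 90 min, and 1102 at 16 h. Irf7 changed unequally between materials: input counts of 24 to 35 through 90 min became 5300 at 16 h, and footprint counts of 7 to 24 became 169. Its density change at 16 h was -3.67 ± 0.54 (edgeR, adjusted p = 0.0039), the only one called in either window among the genes tested in these 5 lists. The gene of interferon beta, Ifnb1, stood at 0 to 1 count up to 45 min in both materials. From 60 to 90 min it had 1, 7 and 9 input counts and 5, 9 and 8 footprint counts, and at 16 h it had 29 and 41.

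Of 25 tested genes of arginine uptake and breakdown, 7 were called higher and 1 lower from input within 90 min, and 5 and 0 from footprints, with medians of -0.029 and 0.071. Scaling by total counts gave 4 higher and 4 lower in footprints within 90 min, with a median of -0.25. At 16 h the calls were 10 higher and 10 lower for input and 12 and 6 for footprints, with medians of 0.10 and 0.010 that this scaling turned to -0.061 and -0.090. Ornithine decarboxylase, Odc1, which starts polyamine synthesis, went from 5186 input counts untreated to 12300 at 90 min and 74436 at 16 h (3.98 ± 0.10 on the log2 scale), and its footprints from 2178 to 5237 and 26923 (3.61 ± 0.17). Sat1, which acetylates polyamines, rose at 16 h by 2.59 ± 0.15 and 2.36 ± 0.13. The arginine transporter gene Slc7a1 rose within 90 min by 1.11 ± 0.09 and 1.10 ± 0.18 and stood at 0.81 ± 0.10 and 0.87 ± 0.21 at 16 h, both called. Gamt, which makes creatine, fell at 16 h by 3.39 ± 0.54 and 3.19 ± 0.42, from 46 to 4 input counts and from 62 to 6 footprint counts. Gatm, the preceding enzyme, which uses arginine, also fell (-0.92 ± 0.10 in input and -0.83 ± 0.11 in footprints). The ornithine carrier gene Slc25a15 fell by 1.21 ± 0.22 and 1.10 ± 0.28.

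Of 7 other tetrahydrobiopterin genes, none was called within 90 min in either material by edgeR or DESeq2, and 0 had an unadjusted edgeR p under 0.05. The medians were -0.175 and -0.191. With scaling by total counts 1 was called lower in input and 4 in footprints in that window, with medians of -0.271 and -0.427. At 16 h none rose and 5 fell in each material, with medians of -0.57 and -0.46, while Gch1 rose. The call for Pts was lost with DESeq2 in both materials (adjusted p = 0.12 and 0.089) and that for Qdpr in input without the untreated library (adjusted p = 0.59). With DESeq2 3 fell in input and 2 in footprints. Gchfr, the feedback regulator of Gch1, stood at -0.64 ± 0.34 and -0.42 ± 0.31 at 16 h, not called.

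Of 11 tested genes that act with nitric oxide synthase or on nitric oxide, 3 rose in input and 2 in footprints within 90 min and none fell, with medians of -0.034 and -0.022. At 16 h 6 were higher and 3 lower by input, and 5 and 4 by footprints, with medians of 0.27 and -0.13. Cytochrome P450 reductase, Por, an electron donor related to the reductase part of nitric oxide synthase, rose within 90 min by 0.74 ± 0.08 and 0.64 ± 0.09 and at 16 h by 2.29 ± 0.09 and 2.03 ± 0.10. Its input counts went from 534 untreated to 872 at 90 min and 2445 at 16 h. With scaling by total counts this list had 1 higher and 1 lower in input within 90 min, and 2 and 5 in footprints.

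Of 27 tested genes of itaconate and citrate metabolism, input changes within 90 min were called for 2, both higher, and footprint changes for 2, 1 in each direction, with medians of -0.044 and -0.081. At 16 h the calls were 2 higher and 15 lower by input and 3 and 19 by footprints, with medians of -0.40 and -0.48. The carrier gene Slc13a3, whose product takes up dicarboxylates and itaconate, fell by 2.40 ± 0.37 and 2.49 ± 0.53, from 52 to 9 input counts and from 23 to 4 footprint counts. The mitochondrial dicarboxylate carrier gene Slc25a10 fell by 1.56 ± 0.19 and 1.67 ± 0.19, and isocitrate dehydrogenase Idh2 by 1.51 ± 0.10 and 1.27 ± 0.15. Clybl, which acts on a breakdown product of itaconate, fell in footprints (-1.72 ± 0.28) and stood at -0.68 ± 0.45 in input, not called. Citrate synthase, Cs, stood at -0.07 ± 0.09 in input and -0.10 ± 0.10 in footprints, neither of them called. The citrate carrier gene Slc25a1 rose by 0.46 ± 0.12 and 0.58 ± 0.13. With scaling by total counts 6 genes of this list fell in input and 13 in footprints within 90 min.

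**Figure D4:**
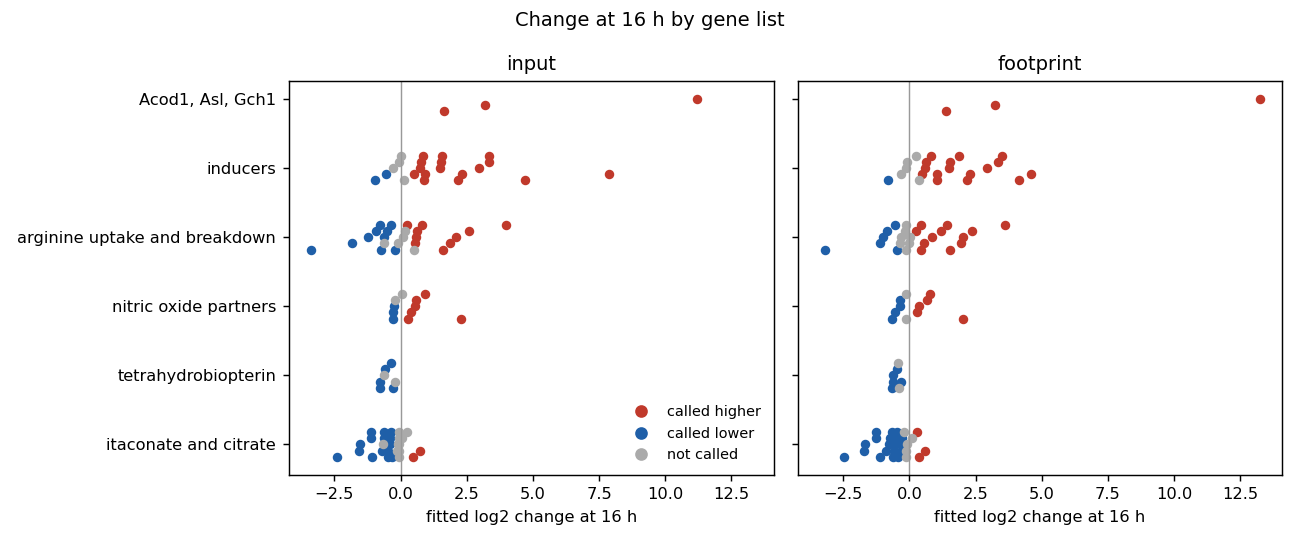
Fitted log2 change at 16 h (horizontal axis) of Acod1, Asl and Gch1 and of the tested genes of 5 lists (rows; vertical offsets within a row only separate points), input on the left and footprints on the right, red for called higher, blue for called lower and grey for not called by edgeR. The genes of the list named inducers lie mostly to the right (16 higher in each material), and the citrate and itaconate genes mostly to the left (15 and 19 lower). Acod1 is drawn at its fitted 11.2 and 13.3 (log2), which overshoot its observed ratios of 758 and 1946 times untreated.

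Taken 1 at a time, each gene's profile was compared with all tested genes by Pearson correlation of log2 CPM (prior count 2) over the 16 libraries, each material centred on its own mean. These values describe 16 libraries that share their scaling and a strong 16 h difference. Closest to Acod1 were Ehd1 (0.994), Il1a (0.990) and Cd14 (0.989), and closest to Gch1 were Mvp (0.990), Enpp4 (0.988) and Zc3hav1 (0.988). Closest to Nos2 were Spryd7 (0.989), Wfdc17 (0.985) and Parp14 (0.984), and to Asl Itgb2 (0.989), Bst2 (0.988) and Lonp1 (0.988). For Ass1 they were Sepw1 (0.963), Tmem199 (0.963) and RP23-273D6.2 (0.961).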

How the data were processed

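The authors deposited 1 table with whole-number read counts per gene for 16 libraries, beside a DESeq2-normalised signal for each of them, per the file headers. The count over the deposited signal was constant within each library to 9.9e-15, and the signal was used only for this check. The submitters' processing notes list Bowtie 0.12.8, DESeq2 1.18.1 and build mm10. The counting tool, annotation, strand setting and treatment of duplicates were looked for and not given in the sources used here. Footprints came from RNase I digests and input from alkaline fragmentation of cytoplasmic RNA, per the labels' protocols.

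Tests covered genes that reached 10 counts in 4 or more of 8 libraries in each material, and ran with edgeR 4.0.16 (glmQLFit and glmQLFTest, TMM scaling, Benjamini-Hochberg over all genes tested) in R 4.3.3. Input and footprints were fitted separately with linear and quadratic minutes and a 16 h term, and the early size is the largest excursion of the curve from 0 min at a sampled time. Density was fitted over 16 libraries with time point as a block, since both materials share a lysate. The single library at 16 h was taken to vary as the earlier ones do. Adjusted p-values are edgeR's unless DESeq2 (1.42.0) is named. Scripts were checked on simulated data with a fixed spread and changes linear in minutes on the log2 scale. That check did not cover steep, delayed rises or genes that fail the count filter. Ratios of single libraries use TMM factors over all 16 libraries, carry 95% exact conditional binomial intervals, and have no replicate check; shares and levels carry exact Poisson intervals. Intervals and the floor of 3 counts cover counting error only.

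The named genes were all members and, per list, material and window, the called genes with the 3 largest changes. Some genes of the lists are not reported here. Gatm, Slc25a15, Ifnb1, Nos1, Nos3, Gchfr, Cs and Slc25a1 were named after their values were seen. The members and lists were chosen with earlier results of these data known. Alternatives were DESeq2, total-count scaling, no count filter, other time curves, no time-point block and leaving out each time point, plus a robust spread added after seeing the data. Arg1, Prodh, Otc, Nags, Pcbd1, Oxgr1 and 6 nitric oxide partners were not analysed here.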

Additional observations from a re-analysis of the deposited data

How the results depend on the processing

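Every call named for Acod1, Gch1 and Asl in input or footprints kept its direction and its side of 0.05 under each alternative tried, except the early Gch1 call in footprints, lost without the untreated library. Members called numbered 1 to 2 of 3 in footprints within 90 min when each time point was left out in turn. With no count filter 6 members were called higher at 16 h in input, among them Arg2 on 3 counts, 5 in footprints and 4 for the mean level. In those fits 22.3%, 21.8% and 31.2% of all genes were called higher. A cubic curve called 1 member higher in density within 90 min. With no time-point block, and so with no pairing and no term for time, 0 members were called for the level.

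Counts over all genes moved more. Early lower calls in input went from 1074 to 623 with DESeq2 and 1866 with total-count scaling, and those in footprints from 791 to 450 and 2610; early higher calls in footprints went from 1160 to 738 with total-count scaling. Early density calls went from 106 higher to 54 with a linear term, and from 13 lower to 48 with total-count scaling, 7 with a linear term, 33 with a cubic curve and 5 with no block. At 16 h the higher density calls went from 29 to 16 with DESeq2 and 18 with no block, and the lower ones from 9 to 16 with a cubic curve. Leaving out each time point gave 583 to 1136 early lower calls in input, 458 to 902 in footprints, 0 to 174 higher and 0 to 134 lower in early density, 1706 to 2700 lower at 16 h in input, 1520 to 2586 higher and 1495 to 2446 lower in footprints, and 1 to 79 higher and 5 to 43 lower in density. The early density counts of 0 came without the untreated library.

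Signs turned only for values that were not called. Leaving out each time point gave -0.092 to 0.089 for the Acod1 level, and no block gave 0.34. Early Gch1 density turned to 0.12 with the square root of time and spanned -0.28 to 0.32 over the times left out, and early Asl density -0.19 to 0.14. Early Asl footprints turned to -0.13 with total-count scaling, where their ratio at 90 min was -0.27 (log2). Leaving out the untreated library turned signs of the sparse genes, for which single times left out gave -3.05 to 2.76 (Nos2 density within 90 min), -1.85 to 3.12 (Nos2 density at 16 h), -0.82 to 0.37, -0.71 to 1.31 and -1.02 to 1.81 (Ass1 input, footprints and density within 90 min) and -0.48 to 1.95 (Ass1 density at 16 h). Without the untreated library, sizes are measured from a value at 0 min that the curve extrapolates. The cause of these moves was not tested. The counts of Arg2, Ass1 and early Nos2 are too low to show a change of moderate size, and why they are low was not tested.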
